A study of Arabidopsis thaliana with 12 samples.

Results

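Wild-type (WT) roots of Arabidopsis thaliana held at low or at high nitrogen were compared over 6 of the 12 arrays of the study. The members were the 3 arrays titled WT_LN and the 3 titled WT_HN, biological replicates by the labels, and all 22746 probe sets other than controls were compared. The low nitrogen plants were at steady state on 0.3 mM KNO3 and the high nitrogen plants on 10 mM NH4NO3, so that the amount of nitrogen, the presence of ammonium and the level of potassium cannot be told apart. The other 6 arrays held roots of hni9, a mutant of the transcript elongation factor HNI9/IWS1, at the same supplies, and entered the fit as further estimates of the spread. Their titles read hni9-1, hni9-2 and hni9 for the 3 replicates, and the labels do not settle whether those numbers name alleles, so the spread taken from them may hold a difference between alleles. Plant age and the ecotype are not given in the sources used here, and whole roots were taken, in which fewer cells of a type and less RNA per cell cannot be told apart.

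Roots take up nitrate and ammonium through separate transporters and reduce nitrate in steps that consume electrons from carriers such as ferredoxin. Assimilation needs carbon skeletons from glycolysis and the citric acid cycle, so nitrogen supply touches carbon, redox and sulphur metabolism as well as nitrogen itself. Roots short of nitrogen are known to raise high-affinity uptake, to recover nitrogen from purines, amides and proteins, and to change growth, cell walls and defence compounds.

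Intensities are the deposited values on a linear scale, and each change is the log2 value at low minus that at high nitrogen after 16 was added, ± the standard error of limma (n = 3 arrays per group). At an adjusted p under 0.05, 1305 probe sets were called (5.74%), with 646 higher (2.84%) and 659 lower (2.9%) at the low supply. A change of 2-fold or more was seen in 470. Groups did not overlap for 24.9% of all probe sets (11.6% with the low nitrogen arrays above, 13.3% below). Each statement below that groups did not overlap is to be read against that share. For genes named for a large change, bright or not, non-overlap was a condition of the choice and is no result. The response of WT differed from that of hni9 for 160 probe sets (0.703%) and for 24 of the 181 genes named by rule, many of which were chosen for a large change in these WT arrays, which raises that share. The median change over all probe sets was -0.02. With arrays centred on their medians 765 were higher and 517 lower. The count fell to between 779 and 879 when any 1 of the 6 arrays was left out, to 820, 807 and 861 without high nitrogen replicates 1, 2 and 3 and to 779 without low nitrogen replicate 2, and between 748 and 828 of the 1305 kept the call. The annotation gave a single gene to 13513 probe sets, and 624 of those were called. The probe sets with the largest rise (7.04 ± 0.51, from an intensity of 170 ± 77.8 to 22687 ± 1110 SD) and the largest fall (-3.73 ± 0.28, from 4220 ± 543 to 303 ± 8.25 SD) carried no single gene name and are not described further. The principal nitrate and ammonium transporters and the nitrate reductases were not analysed here.

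Control probe sets moved in part with the groups. For GAPDH the 3′ probe set divided by the 5′ probe set gave 1.31 to 1.35 at high and 0.921 to 1.19 at low nitrogen. The 25S ribosomal RNA control read 291, 6450 and 574 on the high nitrogen arrays and 4287 to 4939 on the low nitrogen arrays. The part of either in the results was not tested. PYK10 and AT5G66390, which mark roots, summed to 25899 to 28321 at high and 22714 to 25565 at low nitrogen, without overlap. Neither passed the test, and they moved apart, by -0.20 for PYK10 and 0.18 for AT5G66390. PYK10 is also counted among the ER body genes below, so the sum is not independent of that list. Of 12 markers of green tissue only LHCB4.1 and RCA were measured, and their sum was 793 to 1093 at high and 846 to 1029 at low nitrogen.

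Probe sets at all levels were called, and the share called was larger among bright ones. Probe sets were ranked by their mean over the 6 arrays and cut into 10 bins of equal size. In the brightest bin, with a mean intensity of at least 1472, 15.6% were called (183 higher and 171 lower), against 0.176% in the dimmest bin and 3.82% in bin 5. The median size of a called change was 0.64 in the brightest bin and 1.83 in bin 3. The median standard error was 0.109 in the brightest bin and 0.433 in bin 3, so a share called depends on the precision at each level as well as on the response.

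**Figure D1:**
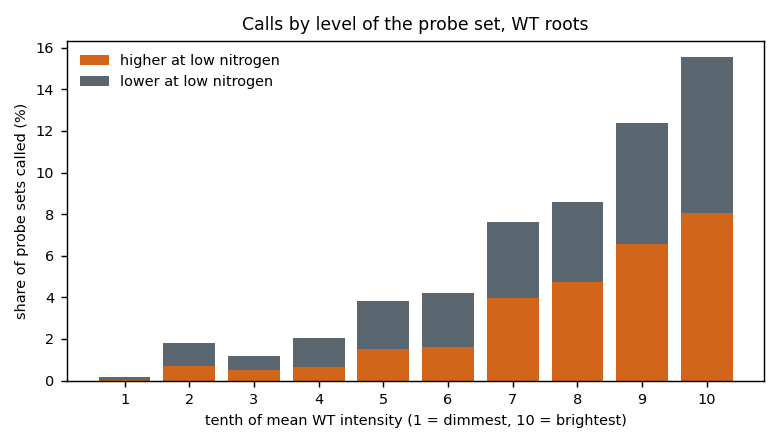
Share of probe sets called at an adjusted p under 0.05 (y axis, %) in 10 bins of equal size by the mean intensity of the 6 WT arrays (x axis, 1 dimmest to 10 brightest), split into probe sets higher (orange) and lower (grey) at low nitrogen. The share is 0.176% in the dimmest bin and 15.6% in the brightest.

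**Figure D2:**
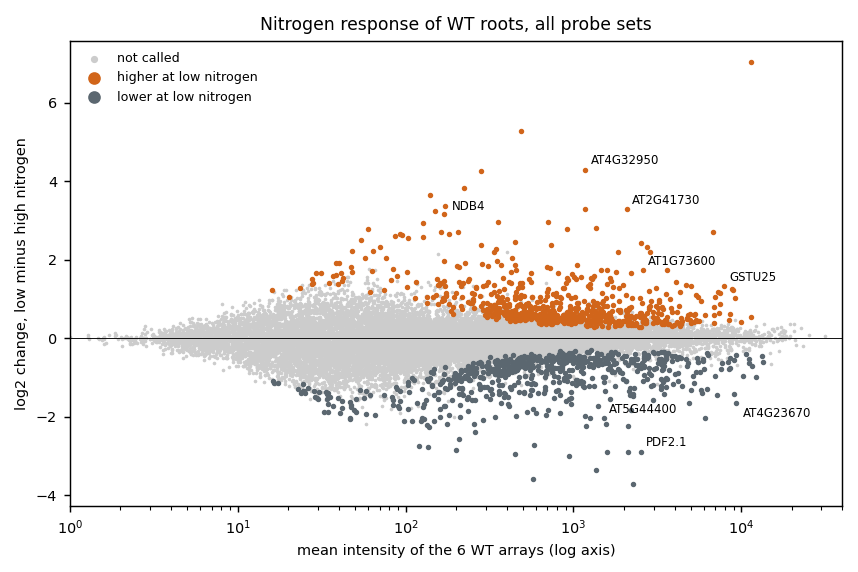
Log2 change, low minus high nitrogen (y axis), against the mean intensity of the 6 WT arrays (x axis, log scale) for all probe sets, with called probe sets in colour and 8 named genes marked; 4 probe sets with a mean under 1 lie outside the axis. Called changes of bright probe sets are mostly smaller than those of dim ones, and AT4G32950 marks the largest rise among the named genes (4.29).

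Of 11 measured genes for the recycling of nitrogen from purines, pyrimidines and amides, 3 rose, 0 fell and 8 did not pass the test, and the median change was 0.09. ASPGB1, an asparaginase that releases ammonium from asparagine, read 472, 509 and 530.1 at high nitrogen and 1196, 1234 and 1283 at low nitrogen. The change was 1.27 ± 0.09 (adjusted p = 1.24e-06), and all low nitrogen arrays lay far above the high nitrogen arrays, with little spread in either group. AAH, allantoate amidohydrolase, which frees ammonium in purine breakdown, read 605, 556 and 486 at high nitrogen and 999, 1140.5 and 1260 at low nitrogen, without overlap (1.02 ± 0.12, adjusted p = 0.000134). ALN, allantoinase, acts 1 step before AAH and rose less, by 0.49 ± 0.13 from 418, 416 and 460 to 629, 575 and 634 (adjusted p = 0.0453). Its groups did not overlap, but its call ended without any 1 of the 6 arrays (adjusted p = 0.0767 to 0.137).

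Vacuolar processing enzymes are proteases that mature and break down vacuolar proteins. Of 6 measured genes of senescence and vacuolar proteolysis 2 rose and 0 fell, all 6 changes were positive, and their median was 0.66. SAG29, 1 of the 6, is also counted among the sugar carriers below. The bright GAMMA-VPE read 2748, 3140 and 2500.3 at high nitrogen and 4913, 4719 and 4730 at low nitrogen (0.78 ± 0.12, adjusted p = 0.00162), with no overlap. BETA-VPE read 321, 198 and 269 at high and 479, 394 and 488 at low nitrogen (0.77 ± 0.20, adjusted p = 0.0376). Its call ended without high nitrogen replicate 2 or 3 or without any 1 of the low nitrogen arrays (adjusted p = 0.0621 to 0.159). Autophagy, which also serves protein recycling, showed no call by limma among 11 measured genes, with 1 at an unadjusted p under 0.05. The median was 0.06 and the range was -0.43 (ATG8D) to 0.22. For the proteasome 0 genes were measured. Of 11 genes for the breakdown of branched-chain amino acids 1 rose, AT5G09300, a subunit of the branched-chain keto acid dehydrogenase (0.75 ± 0.16, adjusted p = 0.0137), a call that ended without high nitrogen replicate 1 or low nitrogen replicate 2 or 3 (adjusted p = 0.0616 to 0.069).

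Transporters of the nitrate and peptide transporter family (NPF) carry nitrate, peptides, hormones and glucosinolates. Of 34 measured members 5 fell and 1 rose, and the median change was -0.36. AT1G59740 read 522, 539 and 393 at high nitrogen and 162, 162 and 142 at low nitrogen, a fall of all arrays to well under the high nitrogen range (-1.54 ± 0.18, adjusted p = 0.000134). AT3G45680 read 320, 424 and 400.5 at high and 111, 151 and 242 at low nitrogen (-1.17 ± 0.25, adjusted p = 0.0127). Its call ended without high nitrogen replicate 2 or 3 or low nitrogen replicate 1 or 2 (adjusted p = 0.0524 to 0.0629). GTR1 and GTR2, which import glucosinolates into cells, were both lower. GTR2 read 2461, 1814 and 2624 at high and 1482, 1691 and 1642 at low nitrogen (-0.50 ± 0.12, adjusted p = 0.0205). GTR1 read 609, 713 and 865 at high and 496, 466 and 496 at low nitrogen (-0.56 ± 0.15, adjusted p = 0.0454). Each of these 2 calls ended with single arrays left out, that of GTR2 without replicate 1 or 3 of either group (adjusted p = 0.0568 to 0.102) and that of GTR1 without any array but high nitrogen replicate 1 (adjusted p = 0.104 to 0.195). NRT2.5, a high-affinity nitrate transporter, was dim and its groups overlapped, at 47.1, 57.1 and 50.3 at high and 117, 25.9 and 90.2 at low nitrogen (0.32 ± 0.48, adjusted p = 0.822).

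Genes that supply NADPH and carbon skeletons changed at high levels of expression. Of 5 measured genes of the oxidative pentose phosphate pathway, which makes NADPH, 2 rose and 0 fell, both of them 6-phosphogluconate dehydrogenases. AT5G41670 read 4056, 3835 and 3862 at high nitrogen and 7699.5, 7628 and 7544 at low nitrogen (0.96 ± 0.14, adjusted p = 0.000618), close to double on every array. AT1G64190 read 5643, 6040.2 and 5690.3 at high and 9265, 8990.3 and 8721 at low nitrogen (0.63 ± 0.10, adjusted p = 0.00128). Neither gene had overlapping groups, which for AT5G41670 was a condition of its choice.

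In the glycolysis list, which also held a pyruvate decarboxylase of fermentation, 3 of 7 measured genes were higher and 1 lower. Of the 7 changes 6 were positive, and the median was 0.37. The only negative change was that of the pyruvate decarboxylase. PGM, locus AT1G78050, of the phosphoglycerate mutase family, read 650.2, 723 and 685 at high and 1684, 1734 and 1844 at low nitrogen (1.33 ± 0.22, adjusted p = 0.00194). The pyruvate kinase gene AT5G56350 read 2767, 2341 and 2513 at high and 4241, 4176 and 4383 at low nitrogen (0.75 ± 0.12, adjusted p = 0.00201). Another pyruvate kinase gene, AT5G08570, rose by 0.51 ± 0.09 (adjusted p = 0.00262), from between 2399 and 2584 to between 3410 and 3788, and none of these 3 genes had overlapping groups. Pyruvate decarboxylase, which draws pyruvate into ethanol fermentation, went the other way. PDC2 read 1955, 1845 and 1864 at high nitrogen and 409, 580 and 419 at low nitrogen (-1.99 ± 0.23, adjusted p = 9.85e-05), and every low nitrogen array lay far below the lowest high nitrogen array. Among 22 measured core hypoxia genes, to which PDC2 belongs, 3 rose and 1 fell, with a median of 0.12, so that PDC2 fell while AT1G33055 (1.43 ± 0.25), AT3G03270 (0.91 ± 0.13), a gene of the universal stress protein family, and AT5G66985 (0.91 ± 0.15) rose.

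Of 19 measured genes in a list for the citric acid cycle, acetyl-CoA supply and the glyoxylate cycle 1 rose and 1 fell. The median was -0.07. Both called genes encode enzymes outside the mitochondrial cycle, in the plastid and the cytosol. The list did not hold AT3G13930, a pyruvate dehydrogenase subunit given under the other observations. MDH, a plastid malate dehydrogenase, read 3001, 2510.5 and 3364 at high and 4058, 3649 and 4427 at low nitrogen (0.45 ± 0.11, adjusted p = 0.0259), a call that ended without replicate 1 of either group, high nitrogen replicate 2 or low nitrogen replicate 3 (adjusted p = 0.0683 to 0.123). cICDH, the cytosolic isocitrate dehydrogenase that makes 2-oxoglutarate, the acceptor for ammonium, read 14966, 17532 and 13776 at high and 11208, 11405 and 10975 at low nitrogen (-0.45 ± 0.11, adjusted p = 0.0286). It was among the brightest genes on the arrays, and its groups did not overlap. Its call ended without any array but high nitrogen replicate 3 (adjusted p = 0.0733 to 0.138) and with arrays centred on their medians (adjusted p = 0.121).

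SWEET carriers, which let sugars cross membranes down their gradient, rose in 4 of 16 measured members and fell in 0, with a median of 0.32. Of the 16 changes 11 were positive, and the range was -1.13 to 1.2. All low nitrogen arrays lay above the high nitrogen arrays for 5 members and below them for 3. SWEET2, a vacuolar carrier of roots, read 242, 304 and 337 at high nitrogen and 629, 611 and 604 at low nitrogen (1.04 ± 0.15, adjusted p = 0.000797). SWEET13, a sucrose exporter, read 260, 199 and 206 at high and 479, 491 and 467 at low nitrogen (1.07 ± 0.18, adjusted p = 0.00219). SWEET17, a vacuolar fructose carrier, read 949.5, 941 and 883 at high and 1197, 1362 and 1516 at low nitrogen (0.54 ± 0.10, adjusted p = 0.00405). The 3 low nitrogen arrays were above the 3 high nitrogen arrays for each of these carriers. SWEET14 rose by 0.93 ± 0.24 (adjusted p = 0.031), and its call ended without any array but high nitrogen replicate 3 (adjusted p = 0.0813 to 0.135).

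**Figure D3:**
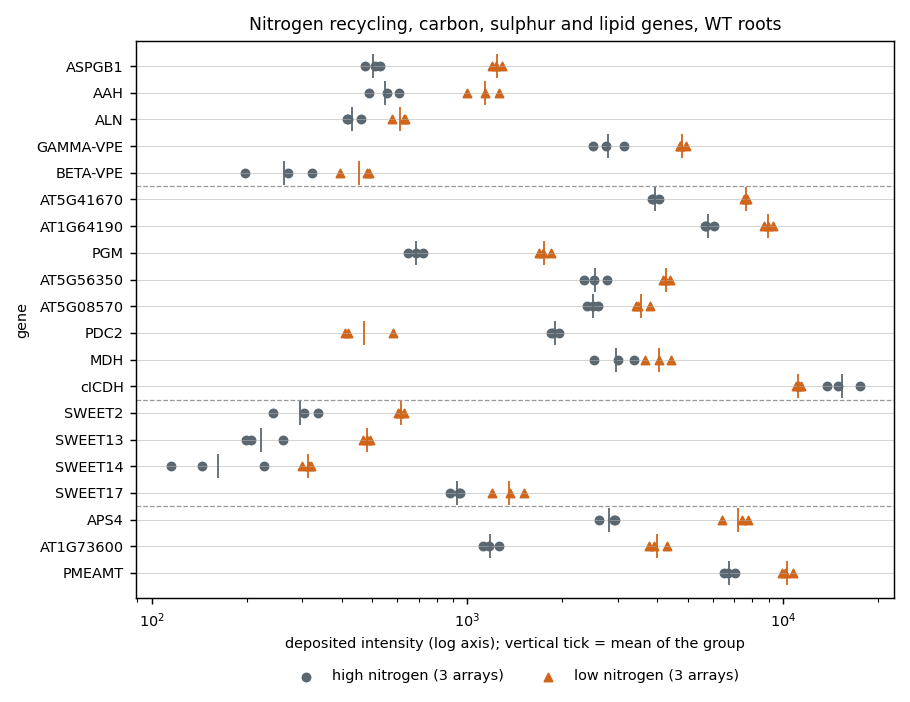
Intensities (x axis, log scale) of 20 genes of nitrogen recycling (top), carbon metabolism, sugar carriers, and sulphur and phospholipid synthesis (bottom) on the 3 high nitrogen (grey circles) and 3 low nitrogen (orange triangles) WT arrays, with group means as ticks. The genes were picked from called genes, and the groups do not overlap for any of them (24.9% over all probe sets). Neither that non-overlap nor the number in each direction is therefore a result. PDC2 and cICDH lie lower at low nitrogen and the other 18 higher.

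Some bright genes of sulphur and glutathione metabolism were higher at low nitrogen, and other bright glutathione transferases were lower. APS4, ATP sulphurylase, the enzyme that activates sulphate for assimilation, read 2928, 2915 and 2607 at high nitrogen and 7432, 6413 and 7726 at low nitrogen (1.34 ± 0.14, adjusted p = 4.78e-05). Its lowest low nitrogen array was more than double its highest high nitrogen array. The 6 other measured genes of sulphur amino acid metabolism gave no call by limma, with 2 at an unadjusted p under 0.05. Of their changes 2 were positive, and the median was -0.11. SIR, sulphite reductase, changed by 0.21 ± 0.10 (adjusted p = 0.276) and MGL by -0.82 ± 0.31 (adjusted p = 0.156). Glutathione transferases, which attach glutathione to reactive compounds, split. Of 13 measured genes 4 rose, 2 fell and the median was 0.14, which turned to -0.01 without low nitrogen replicate 3. GSTU25 read 4648, 4246 and 4632 at high nitrogen and 11968, 10870.0 and 11085 at low nitrogen (1.32 ± 0.25, adjusted p = 0.00575). GSTU22 read 3826, 3536 and 3349 at high and 7296, 7255 and 7754 at low nitrogen (1.06 ± 0.18, adjusted p = 0.00289). GSTU26, the neighbour of GSTU25 in locus number, went the other way, at 3492, 3956 and 3597 at high and 1883, 2158 and 1876 at low nitrogen (-0.90 ± 0.18, adjusted p = 0.00656). GSTU27 fell by 0.53 on the log2 scale, with a standard error of 0.11 (adjusted p = 0.00723). GSTU20 rose by 0.90 ± 0.24 (adjusted p = 0.0375), a call that ended without any 1 of the 6 arrays (adjusted p = 0.059 to 0.151).

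Methyltransferases that build phosphocholine, the head group of phosphatidylcholine, rose. AT1G73600, a phosphoethanolamine methyltransferase, read 1256, 1122 and 1168 at high nitrogen and 4297, 3898 and 3764 at low nitrogen (1.74 ± 0.11, adjusted p = 5.49e-07), the largest rise among the 15 bright genes named by rule. PMEAMT, a close relative, was brighter on all arrays and rose less, from 7064, 6505 and 6693 to 10166, 9946 and 10754 (0.61 ± 0.13, adjusted p = 0.0118). Its call ended without high nitrogen replicate 2 (adjusted p = 0.0546) or low nitrogen replicate 3 (adjusted p = 0.0537). Of the 7 measured genes of S-adenosylmethionine and phosphocholine metabolism 3 rose and 1 fell, with a median of -0.06. The gene that fell, AT1G12010, encodes an ACC oxidase, the last step of ethylene synthesis, and read 436, 596 and 372 at high and 172, 194 and 172 at low nitrogen (-1.29 ± 0.18, adjusted p = 0.000618).

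Genes that respond when mitochondrial respiration is disturbed rose together. All 7 measured members rose, with a median of 2.96, in a list that was drawn up with the rise of some members in these data known. AT2G41730 read 404, 335 and 387 at high nitrogen and 3576, 3899 and 3881 at low nitrogen (3.28 ± 0.19, adjusted p = 4.4e-07). Its probe set can bind transcripts of other genes. AT5G51440, a small heat shock protein of mitochondria, read 531, 477 and 587 at high and 1531, 1581 and 1493 at low nitrogen (1.51 ± 0.10, adjusted p = 7.32e-07). It was the only called rise among 14 measured heat shock and chaperone genes, where 1 gene, Hsp70-2, fell (-0.61 ± 0.16, adjusted p = 0.0392, a call that ended without any 1 of the 6 arrays at adjusted p = 0.0699 to 0.158). AT2G04050, a MATE efflux carrier, read 62.6, 60.4 and 84.9 at high and 566, 665 and 706 at low nitrogen (2.96 ± 0.29, adjusted p = 2.5e-05). Of 14 measured genes of the nucleus-encoded respiratory chain and its bypasses 3 rose and 0 fell, with a median of 0.12, and 2 of these, NDB4 and NDB2, also stand in the list above. NDB4, an alternative NAD(P)H dehydrogenase that bypasses complex I, read 4.86, 33.2 and 17.8 at high and 259, 401 and 315 at low nitrogen (3.37 ± 0.56, adjusted p = 0.00213). NDB2, another bypass enzyme, was bright in both groups and rose by 0.58 ± 0.13 (adjusted p = 0.0164), a call that ended without replicate 2 of either group, high nitrogen replicate 3 or low nitrogen replicate 1 (adjusted p = 0.0526 to 0.0873). Of 16 genes encoded by the mitochondrial genome limma called 0, with 0 at an unadjusted p under 0.05, and the median was 0.11.

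Of 8 measured genes of a list of defence proteins 2 fell, 1 rose and the median was -0.11, which turned to 0.0398 without high nitrogen replicate 1. The bright genes described next were named for the size of their falls and do not make up a list. AT4G23670, a major latex protein-like gene, was among the brightest genes at high nitrogen, at 14183, 13673 and 14104, and read 4892, 4786 and 3832 at low nitrogen (-1.64 ± 0.11, adjusted p = 9.16e-07). Of 15 measured members of that family 5 fell and 0 rose, with a median of -0.57. AT4G14060 (-1.33 ± 0.18) and AT4G23680 (-0.77 ± 0.11), a neighbour of AT4G23670, were among those that fell. OSM34, an osmotin-like defence protein, read 10435, 10081 and 11161 at high and 3694, 3990 and 3863 at low nitrogen (-1.45 ± 0.09, adjusted p = 5.28e-07). The low nitrogen arrays of AT4G23670 and OSM34 lay far below every high nitrogen array, and non-overlap was a condition of their choice.

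PDF2.1, a plant defensin, fell furthest among these, from 4484, 5132 and 3723 to 648, 655 and 456 (-2.90 ± 0.23, adjusted p = 2.69e-06). AT1G48750, of the lipid transfer and protease inhibitor family, read 6902, 7901 and 7444 at high and 2106, 2631 and 2337 at low nitrogen (-1.65 ± 0.11, adjusted p = 6.54e-07). AT3G53980, of the same family, fell by 1.42 on the log2 scale with a standard error of 0.14, while AT4G12500, a lipid transfer gene like AZI1, rose from 1152, 708 and 692 to 2520, 2448 and 2334 (1.54 ± 0.27, adjusted p = 0.0035). Members of that protein family therefore moved in opposite directions in the same roots. AT4G16260, a beta-1,3-glucanase family gene, read 6863, 6632 and 7956 at high and 2778, 2895 and 2892 at low nitrogen (-1.32 ± 0.10, adjusted p = 1.23e-06). AT3G16530, a lectin, read 1917, 1661 and 2305 at high and 362, 472 and 382 at low nitrogen (-2.23 ± 0.16, adjusted p = 9.31e-07). AT3G22240, a gene with no assigned function here, read 12735, 12773 and 13983 at high and 4873, 4985 and 4928 at low nitrogen (-1.41 ± 0.09, adjusted p = 6.54e-07). None of these genes had overlapping groups, which was a condition of their choice.

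Chitinases, which cut the chitin of fungal walls, also split. ChiC read 1210, 895 and 1045 at high nitrogen and 2990.2, 3814 and 3188 at low nitrogen (1.65 ± 0.16, adjusted p = 1.94e-05). The chitinase gene CHI (AT2G43570) read 1116, 1176 and 921 at high and 504, 593 and 676 at low nitrogen (-0.84 ± 0.15, adjusted p = 0.00382). AT2G43590, of the same locus cluster, fell from 3794, 4480.4 and 4189 to 1496, 2061 and 1915 (-1.19 ± 0.26, adjusted p = 0.012), a call that ended without high nitrogen replicate 2 (adjusted p = 0.0552) or low nitrogen replicate 1 (adjusted p = 0.0614). ER bodies are root compartments that store glucosinolate-cleaving enzymes, and jacalin-related lectins associate with those enzymes. Of 8 measured genes of these proteins only JAL22 passed the test, but all 8 changes were negative, 7 had an unadjusted p under 0.05 and the median was -0.59. JAL22 read 9099, 8061 and 8236 at high and 3423, 3858 and 2455 at low nitrogen (-1.40 ± 0.31, adjusted p = 0.0145), a call that ended without high nitrogen replicate 1 (adjusted p = 0.0584) or low nitrogen replicate 3 (adjusted p = 0.0792).

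**Figure D4:**
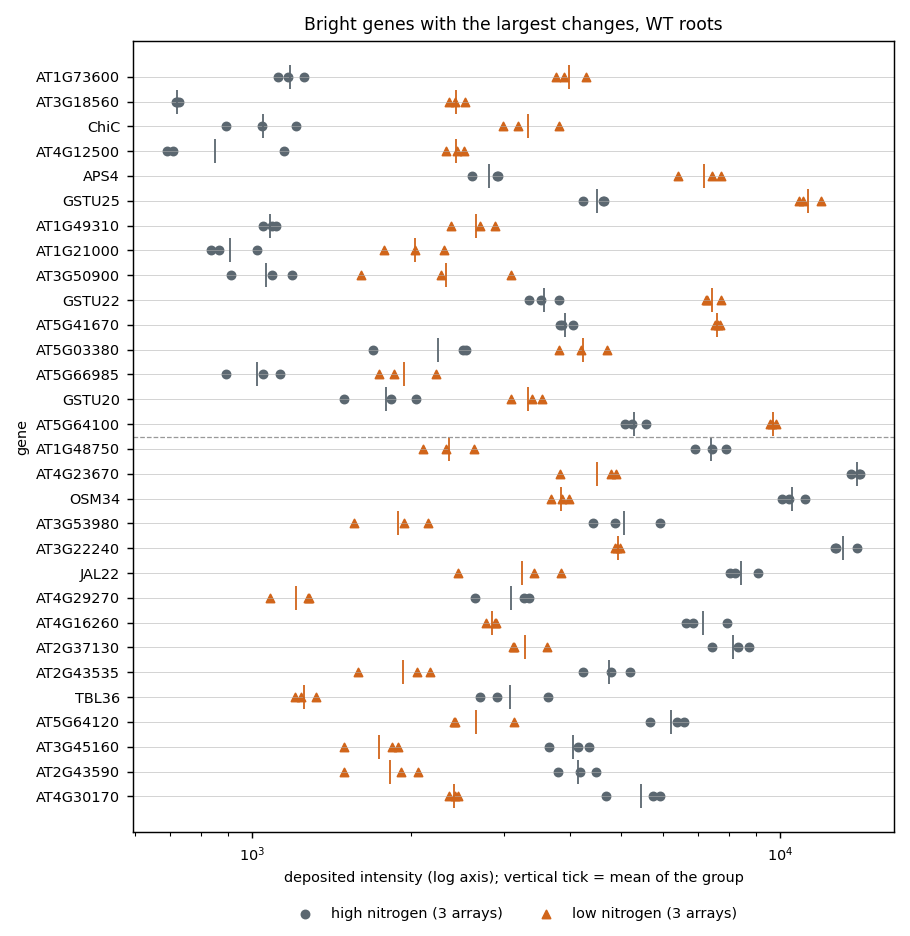
Intensities (x axis, log scale) of 15 bright genes that rose (above the dashed line) and 15 that fell, the largest changes of bright genes with a single gene name that were not already among the 12 named for the largest changes each way, on the 3 high nitrogen (grey circles) and 3 low nitrogen (orange triangles) WT arrays, with group means as ticks. The groups were required not to overlap; AT4G23670 falls from between 13673 and 14183 to between 3832 and 4892, and GSTU25 rises from between 4246 and 4648 to between 10870.0 and 11968.

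Class III peroxidases, secreted enzymes that cross-link or loosen cell walls, fell in 10 of 55 measured members and rose in 3, with a median of -0.01. AT2G37130 read 7446, 8751 and 8326 at high nitrogen and 3144, 3618 and 3129 at low nitrogen (-1.31 ± 0.21, adjusted p = 0.00184). AT5G64120 read 5674, 6582 and 6396 at high and 2419, 3143 and 2428 at low nitrogen (-1.23 ± 0.21, adjusted p = 0.00274). AT4G30170 read 4678, 5754 and 5938 at high and 2455, 2428 and 2366 at low nitrogen (-1.16 ± 0.14, adjusted p = 0.000186). These 3 bright genes each fell on all low nitrogen arrays to under the lowest high nitrogen array, which was a condition of their choice. AT5G64100, 2 locus numbers from AT5G64120, rose instead, from 5574, 5096 and 5244 to 9582, 9690 and 9861 (0.87 ± 0.10, adjusted p = 0.000105). AT3G49960 (-1.34 ± 0.14) and AT2G41480 (-1.14 ± 0.17) were among the others that fell.

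Among expansins, which loosen walls during growth, 3 of 19 measured members fell, 1 rose and the median was -0.31. EXPA4 read 4268, 3705 and 4311 at high and 2888, 3042 and 3054 at low nitrogen (-0.45 ± 0.08, adjusted p = 0.00536). EXPA9 rose from between 982 and 1153 to between 1564 and 1765 (0.64 ± 0.12, adjusted p = 0.00389). Neither overlapped between the groups. EXPA18, an expansin of root hairs, fell from between 824 and 1069 to between 570 and 716 (-0.54 ± 0.13, adjusted p = 0.0226), a call that ended without replicate 1 of either group, high nitrogen replicate 2 or low nitrogen replicate 3 (adjusted p = 0.0666 to 0.113). Of 31 measured endoglucanases, xyloglucan transferases and related synthases 2 rose and 3 fell, with a median of -0.12. GH9B13, an endoglucanase, fell from 2504, 1841 and 2253 to 1315, 1024 and 1245 (-0.87 ± 0.17, adjusted p = 0.00682). TBL36, of a family that acetylates wall polysaccharides, read 3636, 2915 and 2710.2 at high and 1323, 1240.2 and 1206 at low nitrogen (-1.28 ± 0.12, adjusted p = 2.09e-05). TUB1, a beta-tubulin, fell from between 2564 and 2938 to between 1831 and 1959 (-0.52 ± 0.10, adjusted p = 0.00659), 1 of 2 falls among 9 measured tubulins and actins. RALFL24, of a family of signalling peptides that make cell walls more alkaline, fell from 532, 591 and 510 to 332, 340.3 and 310.1 (-0.70 ± 0.14, adjusted p = 0.00607), 1 of 2 falls among 11 measured members.

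Of 23 measured genes of flavonoids and other phenolics 3 fell and 1 rose, with a median of -0.28. UGT78D2, which adds glucose to flavonols and anthocyanidins, read 1867, 1543 and 1772 at high nitrogen and 750, 660 and 803 at low nitrogen (-1.21 ± 0.19, adjusted p = 0.00153). CHIL, a chalcone isomerase-like protein that aids flavonoid synthesis, read 1495, 1530.5 and 1750 at high and 604, 685 and 750.4 at low nitrogen (-1.21 ± 0.20, adjusted p = 0.00224). The low nitrogen arrays of both genes lay far under the high nitrogen arrays. UGT84A1, which glycosylates hydroxycinnamates, was the other that fell, from 241, 141 and 299 to 76.8, 38.5 and 9.68 (-2.20 ± 0.53, adjusted p = 0.0226). The call was lost without high nitrogen replicate 1 or 3 or low nitrogen replicate 2 or 3 (adjusted p = 0.0673 to 0.105), without the intensity trend (adjusted p = 0.0583) and with 1 added (adjusted p = 0.0734). UGT71C1, a glycosyltransferase of flavonols and other phenolics, rose from between 805 and 974 to between 1209 and 1382 (0.53 ± 0.10, adjusted p = 0.00419). AT5G44400, a berberine bridge enzyme-like oxidase, fell from 2550, 2523 and 2252 to 611, 596 and 548 (-2.03 ± 0.11, adjusted p = 1.43e-07). AT4G20860, another of that family, rose from between 2283 and 2386 to between 3602 and 4284 (0.76 ± 0.10, adjusted p = 0.000273), and these were the only 2 calls among 22 measured members. Of 51 measured UDP-glycosyltransferases of all kinds 2 rose and 3 fell, and among 24 cytochrome P450 genes limma called 0, with 2 at an unadjusted p under 0.05 and a median of -0.01.

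Iron and zinc homeostasis gave 3 rises and 0 falls among 16 measured genes (18.8% called, against 5.74% over all probe sets), with a median of 0.04. In a separate list for iron deficiency, with 3 measured genes, 1 rose, AT3G13610, and 0 fell. Its median was -0.26, its range was -0.70 to 0.61, and the median changed sign in some settings given below. AT3G07720, a kelch repeat gene that marks iron deficiency, read 461, 530.1 and 501 at high nitrogen and 954, 1270 and 999 at low nitrogen (1.08 ± 0.13, adjusted p = 0.000197), without overlap. AT3G13610, which acts in the synthesis of the coumarin scopoletin, read 3820, 3889.5 and 4066 at high and 5491, 6410.4 and 6128 at low nitrogen (0.61 ± 0.14, adjusted p = 0.0212). Its call ended without any array but low nitrogen replicate 1 (adjusted p = 0.0546 to 0.0944). bHLH104, a regulator of iron uptake, rose by 0.47 ± 0.13 (adjusted p = 0.0433), and its call ended without any array but low nitrogen replicate 1 (adjusted p = 0.0585 to 0.177). BZIP60, a transcription factor of the endoplasmic reticulum stress response, rose from 1044, 1096 and 1114 to 1628, 2031 and 1844 (0.74 ± 0.10, adjusted p = 0.000566). It was the only called rise among 14 measured genes of protein folding in the endoplasmic reticulum, where 1 gene fell and the median was -0.10.

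Of 17 measured class III glutaredoxins, a family with members whose transcripts respond to nitrogen supply, 1 rose and 0 fell (5.88%, close to the share over all probe sets), 13 changes were positive, 7 had an unadjusted p under 0.05 and the median was 0.41. The gene that rose, AT5G11930, read 144, 91.2 and 87.2 at high and 264, 240 and 217 at low nitrogen (1.08 ± 0.30, adjusted p = 0.0484). Its call ended without any array but high nitrogen replicate 1 (adjusted p = 0.0956 to 0.16). Of 23 listed nitrogen signalling regulators only 3 were measured, all of the HHO family, and limma called 0 of these, with 1 at an unadjusted p under 0.05. That gene, AT3G25790, read 440.3, 359 and 434 at high and 674, 717 and 772 at low nitrogen, without overlap (0.79 ± 0.25, adjusted p = 0.0796). Of 21 auxin regulators and conjugating enzymes 1 fell and 0 rose, the dim auxin synthesis gene YUC4 (-1.28 ± 0.34, adjusted p = 0.0398), a call that ended without any 1 of the 6 arrays (adjusted p = 0.053 to 0.153). Among 7 WRKY factors limma called 0, with 0 at an unadjusted p under 0.05.

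Of 69 measured genes of the plastid genome 6 fell and 0 rose (8.7%), 28 had an unadjusted p under 0.05 and the median was -0.30. psbJ, which encodes a small subunit of photosystem II, read 1753, 1277 and 1260.0 at high and 789, 886 and 700.3 at low nitrogen (-0.83 ± 0.18, adjusted p = 0.0132). Its call ended without high nitrogen replicate 1 (adjusted p = 0.0707) or low nitrogen replicate 3 (adjusted p = 0.0676). The summed intensity of the 69 genes was 122880 to 137630 at high and 100450 to 115400 at low nitrogen. Of 25 nucleus-encoded photosynthesis genes limma called 0, with 2 at an unadjusted p under 0.05, while the median was -0.36 and only 4 changes were positive. Their summed intensity was 7022 to 8801 at high and 5665 to 6641 at low nitrogen, while the sum of the 2 green tissue markers overlapped between the groups, as given above.

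Few genes of cytosolic ribosomal proteins, core histones and tetrapyrrole synthesis were called. For cyclins and DNA replication 1 gene was measured and for the proteasome 0, so neither is described. Of 74 measured genes of cytosolic ribosomal proteins 1 rose and 0 fell, 9 had an unadjusted p under 0.05, the median was 0.06 and the range was -0.29 to 0.55. The gene that rose was AT2G40010, a dim member of the family (0.55 ± 0.14, adjusted p = 0.0286), and its call ended without any array but low nitrogen replicate 1 (adjusted p = 0.0665 to 0.115). Among 9 core histones and 12 genes of tetrapyrrole synthesis limma called 0 in each, with 0 at an unadjusted p under 0.05 in both. Over all 63 gene lists with at least 3 measured members, many of which overlap, 17 held no called gene. Of the 863 distinct genes in them 118 were called. The share called was 5.74% over all probe sets and 4.62% over those with 1 annotated gene. Lists were chosen with earlier results of these data known and the share called rises with level, so the count is no result about the pathways.

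The largest changes of named genes fell partly outside these groups. AT4G32950, a protein phosphatase gene of the PP2C family, read 142, 69 and 97 at high nitrogen and 2158, 2168 and 2404 at low nitrogen (4.29 ± 0.23, adjusted p = 1.44e-07). AT5G48430, an aspartyl protease family gene, read 201, 252 and 209 at high and 1533, 1695 and 1572 at low nitrogen (2.78 ± 0.20, adjusted p = 1.23e-06). AT2G41810, of a family of secreted wall proteins with unknown activity, was dim at high nitrogen, at 31.7, 13.6 and 4.87, and read 255, 229 and 368 at low nitrogen (3.25 ± 0.51, adjusted p = 0.00129). In each of these genes the low nitrogen arrays lay several-fold above every high nitrogen array, and non-overlap was a condition of their choice. AT5G40590 (2.97 ± 0.18) and AT5G01740 (2.45 ± 0.13) rose similarly. AT5G52050, another MATE efflux carrier, rose by 2.94 ± 0.45, and of 35 measured members of that carrier family 5 rose and 2 fell, with a median of 0.06.

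On the other side, AT2G16005, a lipid-recognition domain gene, read 1618, 1596 and 1868 at high nitrogen and 152, 209 and 238 at low nitrogen (-3.01 ± 0.26, adjusted p = 6.52e-06). AT1G64370, of unknown function, read 2655, 2849 and 2856 at high and 466, 349 and 293 at low nitrogen (-2.89 ± 0.24, adjusted p = 5.08e-06). AT4G00910, of the aluminium-activated malate transporter family, read 233, 234 and 192 at high and 15.3, 32 and 12.1 at low nitrogen (-2.75 ± 0.40, adjusted p = 0.000664). The low nitrogen arrays of these 3 genes were all far below the high nitrogen arrays, and non-overlap was a condition of their choice. The low nitrogen values of AT4G00910 were close to the added value of 16, which compresses its change. AT2G23910, related to cinnamoyl-CoA reductases, fell from between 854 and 1172 to between 115 and 165 (-2.73 ± 0.30, adjusted p = 6.85e-05), and AT1G19960 fell by 2.95 on the log2 scale.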

How the data were processed

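The deposited table gives 1 linear intensity per probe set and array. Its values show that the authors scaled every array to a trimmed mean of 500 (2% removed at each end). No source used here names the summarisation software. Of 22810 probe sets 64 controls were left out. With limma 3.58.1 in R 4.3.3, log2(intensity + 16) was fitted on all 12 arrays with 1 mean for each of 4 groups and a trend of the variance with intensity, with Benjamini-Hochberg adjustment over all probe sets. In simulated data with normal noise, the probe sets changed were drawn from those above the median level. Of these, 83 of 100 changed by a log2 of 1 and 99 of 100 changed by 2 were recovered, with 10 false calls. Recovery among dimmer probe sets was not measured.

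Genes were named through the annotation (13436 probe sets matched a locus, TAIR10.1), with the brightest probe set of a gene used. Named genes were the 12 largest called changes each way among probe sets with 1 annotated gene whose mean in the higher group exceeded the median level, so that some are dim in the other group and on average. To these were added 15 each way among the brightest 10%, both sets without overlap of the groups, and from each list up to 4 called members, or 2 where none was called. Members, lists and rules were chosen with earlier results of these data known. List counts carry no test. A motif search of promoters was planned but not run, and no sequence is shown.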

Additional observations from a re-analysis of the deposited data

Results flagged for a closer look

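For 24 of the 181 named genes the nitrogen response of WT differed from that of hni9 in the interaction term of the same limma fit at an adjusted p under 0.05, and for 160 of all probe sets (0.703%). Many of the named genes were chosen for large called changes in the same WT arrays that enter the interaction, which raises their share, so the 2 shares are not comparable. Each value below is the log2 change in WT minus that in hni9, and what underlies the differences was not tested. Among genes that rose in WT, the difference was 2.82 for AT2G21640, 2.51 for AT2G41730, 2.99 for AT5G09570, 2.51 for AT2G04050 and 1.03 for AT5G51440, all of the mitochondrial stress list. It was 1.51 for AT5G40590, 1.29 for AT5G01740, 2.34 for AT1G33055, 1.61 for ChiC, 2.66 for AT4G12500 and 1.22 for the peroxidase AT5G64100, while UGT71C1 gave -0.79, a larger rise in hni9.

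Among genes that fell in WT, the difference was -2.23 for AT2G16005, -1.59 for AT1G19960, -2.35 for AT2G23910, -0.646 for AT3G22240, -1.03 for the glucanase gene AT4G16260, -1.66 for the peroxidase AT2G41480 and -0.775 for PMEPCRF, a pectin methylesterase. The major latex protein-like genes AT4G23670, AT4G14060 and AT4G23680 gave -0.797, -1.55 and -1.09. The flavonoid genes UGT78D2 and CHIL gave -1.56 each.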

How the results depend on the processing

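The count (higher, lower) was 1832 (884, 948) with the 6 WT arrays alone, 795 (388, 407) without the intensity trend, 1304 and 1325 with 1 and 64 added, 1282 (765, 517) with arrays centred on their medians, 1331 (681, 650) after quantile normalization and 1478 without the dimmest 40%. It was 413 (210, 203) with replicates 1 and 2 alone, and 779 to 879 (377 to 447, 378 to 451) with 1 array left out. Of the 1305 probe sets called, 754 kept the call without the trend, 394 with replicates 1 and 2 alone and 748 to 828 with 1 array left out. Replicate numbers are shared between the groups, and same-numbered arrays deviated together with a correlation of 0.040, 0.044 and 0.117. Arrays of different numbers gave 0.020 and 0.041 between replicates 1 and 2. They gave -0.075 to -0.053 between replicate 3 and replicate 1 or 2. The main fit did not take the numbers as pairs, and whether replicate 3 was a batch of its own was not tested. With the replicate block the count was 1485 (740, 745) over all arrays and 2021 (979, 1042) over the WT arrays. Of the 135 named genes called, 89 kept the call with each array left out and 7 lost it whichever array was left out. The call was lost by 39 without the trend, 64 with replicates 1 and 2 alone, 10 with centred arrays and 1 with the block over all arrays, and none reversed. List medians that changed sign were those of iron deficiency (0.610 without the dimmest probe sets, 0.172 without WT_HN replicate 1, range -0.633 to 0.172 with 1 array left out), auxin response (0.143 without the dimmest), defence proteins (0.0684 without the dimmest, 0.0398 without WT_HN replicate 1, range -0.359 to 0.0398) and glutathione transferases (-0.0128 without WT_LN replicate 3, range -0.0128 to 0.257). The cause of these shifts was not tested. With 3 arrays a group, changes of dim probe sets are imprecise and compressed by the added 16, and a missing gene name limits each list.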

Other observations

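The genes below were singled out after their values were seen and make up no tested group. Among bright metabolic genes, AT3G58610, the ketol-acid reductoisomerase of branched-chain amino acid synthesis, read 9148, 7564 and 8780.3 at high nitrogen and 11524, 10732 and 11808 at low nitrogen (0.42 ± 0.10, adjusted p = 0.0271), a call that ended without any array but high nitrogen replicate 1 (adjusted p = 0.0523 to 0.134). GR1, glutathione reductase, read 4044, 3387 and 4099 at high and 5702, 5804 and 5779 at low nitrogen (0.59 ± 0.10, adjusted p = 0.00235). AT3G13930, a subunit of mitochondrial pyruvate dehydrogenase, rose from between 3421 and 3913 to between 4970 and 5455 (0.51 ± 0.13, adjusted p = 0.0389), a call that ended without any 1 of the 6 arrays (adjusted p = 0.0629 to 0.142). None of these overlapped between the supplies. In the other direction AT1G54410, a dehydrin, fell from between 13126 and 14292 to between 7971 and 9860.5 (-0.64 ± 0.11, adjusted p = 0.00206).

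COR27, known to follow the circadian clock, read 221, 215 and 177 at high nitrogen and 6.12, 78.6 and 46.7 at low nitrogen (-2.11 ± 0.46, adjusted p = 0.0138), a call that ended without high nitrogen replicate 1 (adjusted p = 0.0545) or 2 (adjusted p = 0.0542). The related gene AT4G33980 fell from between 173 and 225 to between 25.6 and 81 (-1.66 ± 0.34, adjusted p = 0.00818), and CCL from between 272 and 472 to between 79 and 151 (-1.58 ± 0.36, adjusted p = 0.0175). The call of CCL ended without high nitrogen replicate 1 or 3 or low nitrogen replicate 2 (adjusted p = 0.0691 to 0.0898). GI, a core evening gene of the clock, overlapped between the groups, at 856 to 1084 at high and 898 to 1120.2 at low nitrogen (0.03 ± 0.18, adjusted p = 0.967). No source used here states the hour of harvest of either group. The extensin gene AT5G06630, on a probe set that can bind other transcripts, read 1567, 1482 and 1154 at high and 681, 546 and 776 at low nitrogen (-1.05 ± 0.18, adjusted p = 0.00294). The peroxidase gene AT1G34510 fell from between 237 and 432 to between 48.6 and 125 (-1.71 ± 0.29, adjusted p = 0.00231), while the root hair marker EXPA7, at 672, 791 and 702 against 504, 639.6 and 599, did not pass the test (-0.31 ± 0.12, adjusted p = 0.155).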
